A study of Homo sapiens and Mus musculus with 10 samples.

Results

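ER-Hoxa9 cells treated with WM-1119 were compared with ER-Hoxa9 cells given DMSO, in 4 of the 10 libraries of the series. The ER-Hoxa9 line is made of mouse myeloid progenitors in which a HOXA9 protein tied to an estrogen receptor domain holds the cells immature while estrogen is supplied. All 4 libraries came from cells kept with 0.5 µM β-estradiol and stem cell factor in medium conditioned by a hamster ovary (CHO) line, so the controls had estrogen as well. The 2 DMSO libraries were the controls and the 2 treated libraries came from cells given 2 µM WM-1119 for 4 days. The remaining 6 libraries were from the human leukaemia line MOLM-13 and were used here only to ask whether a response differed between the lines. The labels do not state whether the libraries with numbers 1 and 2 came from separate cultures or from 1 clone, so the p-values rest on a spread between libraries that may be purely technical.

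KAT6A (MOZ), of the MYST family, acetylates histones. It works in a complex with a BRPF scaffold, an ING protein and MEAF6 and modifies histone H3 at promoters, and in blood cells it is known for sustaining stem cells and for driving HOX gene expression. WM-1119 is a small molecule that occupies the acetyl-CoA site of KAT6 enzymes. It blocks enzyme activity, so the level of the Kat6a transcript is no check of the treatment. HOXA9 is known for blocking myeloid maturation, and progenitors released from it move towards neutrophils and monocytes, with granule proteins, integrins and phagocyte enzymes appearing in turn.

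Expression was measured by RNA sequencing as TPM (transcripts per 1000000, a share of the library corrected for transcript length), and each value below is a TPM after division by a scaling factor of its library, 0.941 to 1.08, so that the median gene is level. Symbols starting Mir, Snor or Rnu were left out. The others that averaged 1 TPM or more over the 4 libraries were tested, 11096 of all 24493 symbols. The log2 changes are differences of log2(scaled TPM + 1), WM-1119 minus DMSO, which understate the change of genes near 1 TPM. Each library listed 11042 to 11446 symbols at 1 TPM or more. TPM keep no record of read number, so the depth is unknown and a 0 means only that a gene is listed at 0. Without the scaling the median log2 change of all genes moved from -0.00 to 0.12, and 72.6% of genes then had a positive value, so directions are given relative to the median gene.

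The cells carried the transcripts of myeloid progenitors. Kit, the receptor for stem cell factor, was at 242 and 211 TPM in DMSO 1 and DMSO 2 (the DMSO pair, always given in this order) and at 281 and 229.7 TPM in WM-1119 1 and WM-1119 2 (the treated pair). Cd34, a progenitor surface protein, was at 714 and 860.2 TPM in the DMSO pair and 830.5 and 922 TPM in the treated pair. Ctsg, the granule protease cathepsin G, was at 2529 and 2755 TPM in the DMSO pair and 2997 and 2462 TPM in the treated pair. All 4 libraries held these genes at high levels and the groups overlapped for each. The defining genes of late neutrophils were near 0. Ltf (lactoferrin) was at most 0.199 TPM, Camp (cathelicidin) at most 0.457 TPM and Ngp (neutrophilic granule protein) at most 0.082 TPM in any library.

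The 2 DMSO libraries were not alike, and this touches many of the values below. The correlation of log2 values was 0.984 between DMSO 1 and DMSO 2, 0.987 between the WM-1119 libraries, and 0.988 between DMSO 2 and WM-1119 2. For 46.3% of tested genes DMSO 2 lay between DMSO 1 and the mean of the WM-1119 libraries, while DMSO 1 lay between DMSO 2 and that mean for 22.1%. A log2 change without DMSO 1 or without DMSO 2 is therefore given for some genes and lists. Where none is given, the change may still depend on a single control library. No pair of libraries held identical values.

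WM-1119 gave few calls at this size of experiment. In limma, with Benjamini-Hochberg adjustment over all tested genes, 1 gene rose (0.00901% of those tested) and 0 fell, while 828 genes (7.46%) were higher and 434 (3.91%) lower at an unadjusted p under 0.05. The gene that rose was Apoo-ps, a pseudogene symbol named after its value was seen, listed at 0 in both DMSO libraries and at 9.12 and 8.76 TPM with WM-1119 (adjusted p = 0.0278). It passed the filter on low values only through the treated libraries, so it had to differ to be tested at all, and it was not called without that filter (adjusted p = 0.166). Its adjusted p ran from 0.00786 to 0.676 over the alternatives. No member of the gene lists described below passed the adjusted threshold of the main fit in either direction. Both WM-1119 libraries lay above both DMSO libraries for 2515 genes (22.7%) and below both for 2514 genes (22.7%), and those shares are the background for every count of members with groups that do not overlap. In 7 of the 50 lists, 1 to 3 of the members apart on the higher side averaged under 1 TPM in DMSO and were tested only through the treated libraries; those numbers are given beside the counts as members tested only through treatment. With 2 libraries against 2, an exact permutation test cannot give a two-sided p below 0.333. The counts of calls turned on single libraries: without DMSO 2 the counts were 158 higher and 17 lower, without DMSO 1 they were 3 and 1, and without WM-1119 1 or without WM-1119 2 they were 0 and 0.

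Named genes left out pseudogene and placeholder symbols, and those of smallest p on the higher side were led by Rgs10, which codes for a regulator that switches off G-protein signals. Rgs10 was at 2.45 and 2.87 TPM in the DMSO pair and 22.1 and 17.5 TPM in the treated pair. The treated libraries lay far above the control libraries, and both pairs were tight. Its log2 change was 2.50 ± 0.17 (SE) with a limma adjusted p of 0.0516, just outside the threshold, and it passed without scaling (adjusted p = 0.0459) and with robust variance (adjusted p = 0.0434). Without DMSO 1 the log2 change was 2.42 (adjusted p = 0.0459) and without DMSO 2 it was 2.59 (adjusted p = 0.0133), while without WM-1119 1 the adjusted p was 0.676. Over all alternatives its adjusted p ran between those last 2 values.

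Next came genes of diverse roles, none past the adjusted threshold in the main fit. With the replicate number as a factor some of them passed, such as Vpreb3 (limma adjusted p = 0.0343), but no label says that the numbers pair libraries. Vpreb3, a chaperone-like protein of early B cells, was at 8.96 and 10.8 TPM in the DMSO pair and 27.3 and 24.2 TPM in the treated pair. Casp1, the inflammasome protease that matures interleukin-1β, was at 10.7 and 10.4 TPM in the DMSO pair and 24.4 and 21.5 TPM in the treated pair. Inhbb, the inhibin βB subunit from which activin B is built, was at 1.37 and 1.93 TPM in the DMSO pair and 9.47 and 7.01 TPM in the treated pair. In each of these genes the treated libraries lay well clear of the controls. The log2 changes were 1.30 ± 0.14 (SE), 1.05 ± 0.12 (SE) and 1.80 ± 0.21 (SE), with adjusted p-values of 0.206, 0.206 and 0.206 in limma. Fcgrt, the neonatal Fc receptor that recycles IgG and albumin, was at 1.22 and 1.81 TPM in the DMSO pair and 6.61 and 5.63 TPM in the treated pair. Mpeg1, the pore-forming perforin-2 of macrophages, was at 3.63 and 5.41 TPM in the DMSO pair and 17.3 and 13.8 TPM in the treated pair. Tmem176b, a membrane protein of immature dendritic cells and macrophages, was at 49.7 and 48.2 TPM in the DMSO pair and 85 and 82.6 TPM in the treated pair, and its neighbour in the genome, Tmem176a, an example chosen after its values were seen, at 22.3 and 23.6 TPM in the DMSO pair and 47.9 and 38.6 TPM in the treated pair. The groups were apart for all of these because the rule or the choice of example required it. Leaving out either DMSO library therefore could not turn a log2 change. The lowest values were then 1.34 for Fcgrt, 1.36 for Mpeg1 and 0.74 for Tmem176b.

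The remaining higher genes taken by the rule were less tied to myeloid function. Col4a5, a chain of type IV collagen, was at 8.53 and 10.5 TPM in the DMSO pair and 24.7 and 22.9 TPM in the treated pair. Speg, a muscle-type kinase, was at 5.39 and 6.96 TPM in the DMSO pair and 20 and 16.3 TPM in the treated pair. Ptms, the small acidic protein parathymosin, was at 3.83 and 4.28 TPM in the DMSO pair and 11.2 and 15.1 TPM in the treated pair. None of these 3 is a usual myeloid marker. Napsa, the aspartic protease napsin A, was at 45.3 and 50.1 TPM in the DMSO pair and 80.6 and 81.1 TPM in the treated pair. Oas1a, an interferon-induced oligoadenylate synthetase, was at 5.63 and 5.81 TPM in the DMSO pair and 13.4 and 11.5 TPM in the treated pair, and reads shared with its near-identical Oas1 neighbours could be split between them. Akr1c13, an aldo-keto reductase with similar caveats, was at 10.8 and 11.3 TPM in the DMSO pair and 19.5 and 20.2 TPM in the treated pair. Lhpp, a phosphatase, and Zfp385a, a zinc finger protein, had log2 changes of 1.13 ± 0.16 (SE) and 1.14 ± 0.16 (SE). The adjusted p-values of the 15 higher genes ran from 0.0516 to 0.265.

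**Figure D1:**
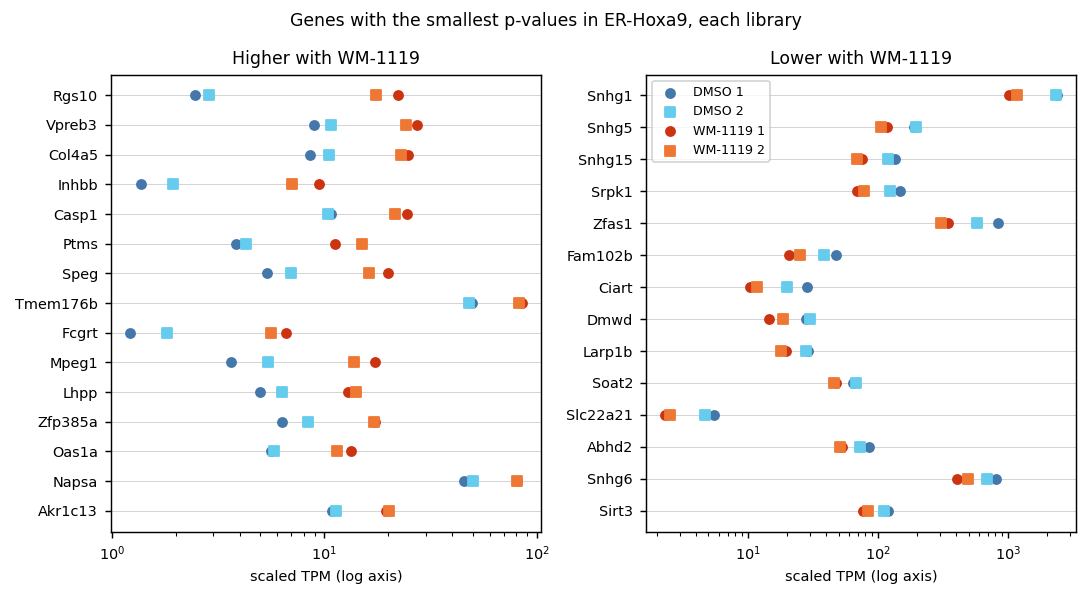
Scaled TPM on a log axis for the 15 genes of smallest p on the higher side (left) and 14 of those on the lower side (right) in ER-Hoxa9; each point is 1 library, blue for DMSO and red or orange for WM-1119. The groups do not overlap for any of these genes because the rule required it, and Rgs10 shows the widest gap, 2.45 and 2.87 TPM against 22.1 and 17.5 TPM.

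Host transcripts of small nucleolar RNAs headed the lower side. These long RNAs carry snoRNAs in their introns and mostly code for no protein. Snhg1 was at 2369 and 2317 TPM in the DMSO pair and 1013 and 1179 TPM in the treated pair. Its control libraries differed by little, and both treated libraries lay far below them. The log2 change was -1.10 ± 0.14 (SE) (limma adjusted p = 0.232), and it was -1.08 without DMSO 1 and -1.12 without DMSO 2. Snhg5 was at 189.6 and 197 TPM in the DMSO pair and 117 and 106 TPM in the treated pair. Snhg15 was at 134 and 119.9 TPM in the DMSO pair and 75.1 and 69.3 TPM in the treated pair. Snhg6 was at 808 and 688 TPM in the DMSO pair and 404 and 492 TPM in the treated pair. Each had treated libraries clear of the controls. Zfas1, a host RNA that lies antisense to the start of Znfx1, was at 834 and 579 TPM in the DMSO pair and 346 and 303 TPM in the treated pair, where DMSO 1 stood well above DMSO 2. Gas5 (growth arrest-specific 5) showed the same split of the controls, at 329 and 199 TPM in the DMSO pair and 174 and 155 TPM in the treated pair, so that its log2 change of -0.64 became -0.27 without DMSO 1. Over all Snhg symbols, Gas5, Zfas1, Dancr and Epb41l4aos, a list put together after the values were seen, 10 of 17 tested members were lower in both treated libraries and 1 was higher, with a median log2 change of -0.53, which was -0.27 without DMSO 1 and -0.40 without scaling.

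The other lower genes of the rule had varied functions. Srpk1, a kinase of the SR splicing factors, was at 147 and 123 TPM in the DMSO pair and 69.1 and 78.7 TPM in the treated pair (log2 change -0.86 ± 0.13 (SE)). Ciart, a repressor within the circadian clock, was at 28.6 and 20.1 TPM in the DMSO pair and 10.4 and 11.8 TPM in the treated pair. For these genes both treated libraries were well below both controls. Sirt3, the mitochondrial deacetylase, was at 119.5 and 111 TPM in the DMSO pair and 76.5 and 83.7 TPM in the treated pair, and Soat2, which esterifies cholesterol, at 64.9 and 67.6 TPM in the DMSO pair and 47.3 and 46.2 TPM in the treated pair. Abhd2, a lipid hydrolase, was at 85.3 and 72.5 TPM in the DMSO pair and 52.9 and 50.8 TPM in the treated pair, and Larp1b, an RNA-binding protein, at 29.2 and 28.3 TPM in the DMSO pair and 19.6 and 18 TPM in the treated pair. Fam102b, Dmwd and Slc22a21, a carnitine transporter, had log2 changes of -0.88, -0.78 and -0.82. The adjusted p-values of the 15 lower genes ran from 0.232 to 0.313.

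Myeloid maturation genes are given by list, and the size of their changes depended on which control library was used. Some of the genes named were chosen after their values were seen, so only the list counts describe a list. In bulk RNA, more cells of a type and more RNA per cell cannot be told apart, here and for every list below. Among myeloid transcription factors, Cebpe, which drives the secondary granule program, was at 20.1 TPM in DMSO 1, 34 in DMSO 2, 61.2 in WM-1119 1 and 43.9 in WM-1119 2. Both treated libraries lay above both controls. The log2 change was 0.96 ± 0.28 (SE) (limma adjusted p = 0.356) and 0.59 without DMSO 1. Spi1 (PU.1), the master factor of myeloid cells, was at 91 and 92.3 TPM in the DMSO pair and 138 and 109.8 TPM in the treated pair, with a log2 change of 0.42. Cebpa, which commits progenitors to granulocytes, was at 175 and 142 TPM in the DMSO pair and 137 and 137 TPM in the treated pair, a little lower in both treated libraries. Gfi1, a repressor needed for neutrophil development, was at 343 and 234 TPM in the DMSO pair and 237 and 189 TPM in the treated pair, and the groups overlapped. Irf8, which directs the monocyte branch, was at 0.822 and 3.91 TPM in the DMSO pair and 4.20 and 7.82 TPM in the treated pair, with DMSO 1 apart from the other 3 libraries. Irf5, Stat3 and Runx1, examples chosen after their values were seen, had log2 changes of 0.51, 0.40 and 0.69. Of 27 tested members of the list, 10 were apart on the higher side and 5 on the lower side, with a median log2 change of 0.10 against -0.00 for all genes. The median was 0.03 without DMSO 1, 0.01 without WM-1119 1 and 0.01 without WM-1119 2.

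Primary granule genes, the first to appear in neutrophil precursors, set DMSO 1 apart from the other libraries more than they set the treatment apart. Mpo (myeloperoxidase) reached 409.7 TPM in DMSO 1 and 1419 TPM in DMSO 2, against 1317 and 1477 TPM with WM-1119. DMSO 2 sat within the treated range. The log2 change was accordingly 0.87 ± 0.55 (SE) over all libraries and -0.02 without DMSO 1. Elane (neutrophil elastase) was at 1.58 and 7.03 TPM in the DMSO pair and 8.37 and 14.8 TPM in the treated pair, Prtn3 (proteinase 3) at 229 and 529 TPM in the DMSO pair and 636 and 812 TPM in the treated pair and Prss57 (a related serine protease) at 3.54 and 5.77 TPM in the DMSO pair and 10.6 and 11 TPM in the treated pair. For these 3 the treated libraries lay above both controls, with DMSO 1 the lowest library. Among 11 tested members 3 were apart on the higher side and 0 on the lower, and the median log2 change of 0.62 became -0.02 without DMSO 1 and 1.38 without DMSO 2.

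Of 25 secondary and tertiary granule genes, 15 were under 1 TPM on average, Ltf, Camp and Ngp among them, and were not tested. The counts below describe the 10 tested genes only. Hp (haptoglobin, a haemoglobin scavenger stored in granules) was at 0.89 and 3.05 TPM in the DMSO pair and 9.74 and 9.56 TPM in the treated pair (log2 change 1.94 ± 0.36 (SE), adjusted p = 0.289). Fcnb (ficolin B, a lectin) was at 0.715 and 1.55 TPM in the DMSO pair and 4.54 and 4.26 TPM in the treated pair, and Pglyrp1, a peptidoglycan-binding protein, at 23.2 and 53.5 TPM in the DMSO pair and 80.9 and 96 TPM in the treated pair. Ceacam1, an adhesion molecule, was at 2.02 and 4.41 TPM in the DMSO pair and 7.17 and 8.06 TPM in the treated pair, and Ltb4r1, the leukotriene B4 receptor, at 12.7 and 13.4 TPM in the DMSO pair and 27.9 and 18.4 TPM in the treated pair. In all 5 genes both treated libraries were above both controls, and the lowest library was DMSO 1. Lcn2 (lipocalin 2, which binds bacterial siderophores) went another way, at 229.7 and 141 TPM in the DMSO pair and 242 and 89.4 TPM in the treated pair, where both libraries numbered 2 were the lower of their group. Slpi, a protease inhibitor, was at 6.02 and 34.6 TPM in the DMSO pair and 33.3 and 30.4 TPM in the treated pair, again with DMSO 1 alone apart. The list had 7 members apart on the higher side and 0 on the lower, with a median log2 change of 0.90, 0.52 without DMSO 1 and 1.25 without DMSO 2.

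Among surface and adhesion genes of mature phagocytes, Itgam, Itgb2, Cd33 and Csf3r were higher in both treated libraries, while S100a8, S100a9 and S100a11 overlapped. Itgam, the CD11b chain of the complement receptor CR3, was at 1.40 and 2.88 TPM in the DMSO pair and 8.17 and 6.41 TPM in the treated pair. Its partner Itgb2 (CD18) was at 27.7 and 25.7 TPM in the DMSO pair and 61.1 and 45.2 TPM in the treated pair. Both chains were higher in both treated libraries. The log2 changes were 1.43 ± 0.27 (SE) and 0.95 ± 0.17 (SE) with limma adjusted p-values of 0.289 and 0.289, and they were 1.09 and 1.01 without DMSO 1 and 1.78 and 0.90 without DMSO 2. Cd33, a sialic acid-binding receptor, was at 94.5 and 144 TPM in the DMSO pair and 258 and 169 TPM in the treated pair, and Csf3r, the G-CSF receptor, at 9.02 and 13.7 TPM in the DMSO pair and 18.4 and 15.1 TPM in the treated pair. S100a8 and S100a9, the calprotectin subunits that dominate mature neutrophils, stayed low, at 3.92 and 0.554 TPM in the DMSO pair and 4.16 and 3.15 TPM in the treated pair for S100a8 and 1.88 and 0.261 TPM in the DMSO pair and 2.34 and 0.91 TPM in the treated pair for S100a9, with overlapping groups. S100a11, the most abundant member of the list, was at 298 and 188 TPM in the DMSO pair and 292 and 308 TPM in the treated pair. In the mature neutrophil list 7 of 18 tested members were apart on the higher side and 1 on the lower (median log2 change 0.53, 0.35 without DMSO 1). In the integrin and adhesion list the counts were 14 and 0 of 22, with a median of 0.23, and the most abundant member, the tetraspanin Cd63, overlapped at 1052 and 781 TPM in the DMSO pair and 1031 and 783 TPM in the treated pair.

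Monocyte and macrophage genes were split between genes that were higher and a few that were lower. F13a1, the coagulation factor XIII A chain of monocytes, was at 27 and 113 TPM in the DMSO pair and 151 and 198 TPM in the treated pair, with DMSO 1 far below DMSO 2. Ms4a6c, a tetraspan membrane protein of monocytes with close copies in the genome, was at 6.54 and 8.56 TPM in the DMSO pair and 36.5 and 17.8 TPM in the treated pair. Adgre1, the F4/80 antigen of macrophages, was at 2.51 and 4.38 TPM in the DMSO pair and 10.3 and 6.92 TPM in the treated pair. Cd14, the co-receptor for lipopolysaccharide, was at 1.17 and 2.00 TPM in the DMSO pair and 5.22 and 3.50 TPM in the treated pair, and Cd68, a lysosomal glycoprotein, at 4.27 and 3.88 TPM in the DMSO pair and 6.28 and 7.25 TPM in the treated pair. Treated libraries lay above controls in these 5 genes. Ccr2, the chemokine receptor that brings monocytes out of the marrow, was not higher, at 76.3 and 105 TPM in the DMSO pair and 72.5 and 79.7 TPM in the treated pair, and Lgals3 (galectin-3) was lower in both treated libraries at 17.3 and 15.5 TPM in the DMSO pair and 12.9 and 9.99 TPM in the treated pair. Emb (embigin) was the most abundant member, at 126 and 188 TPM in the DMSO pair and 199 and 221 TPM in the treated pair. Altogether 11 of 19 tested members were apart on the higher side and 2 on the lower, with a median log2 change of 0.44 that was 0.35 without DMSO 1. Members of the MS4A and TMEM176 families, put together after the values were seen, had 5 of 6 tested apart on the higher side.

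**Figure D2:**
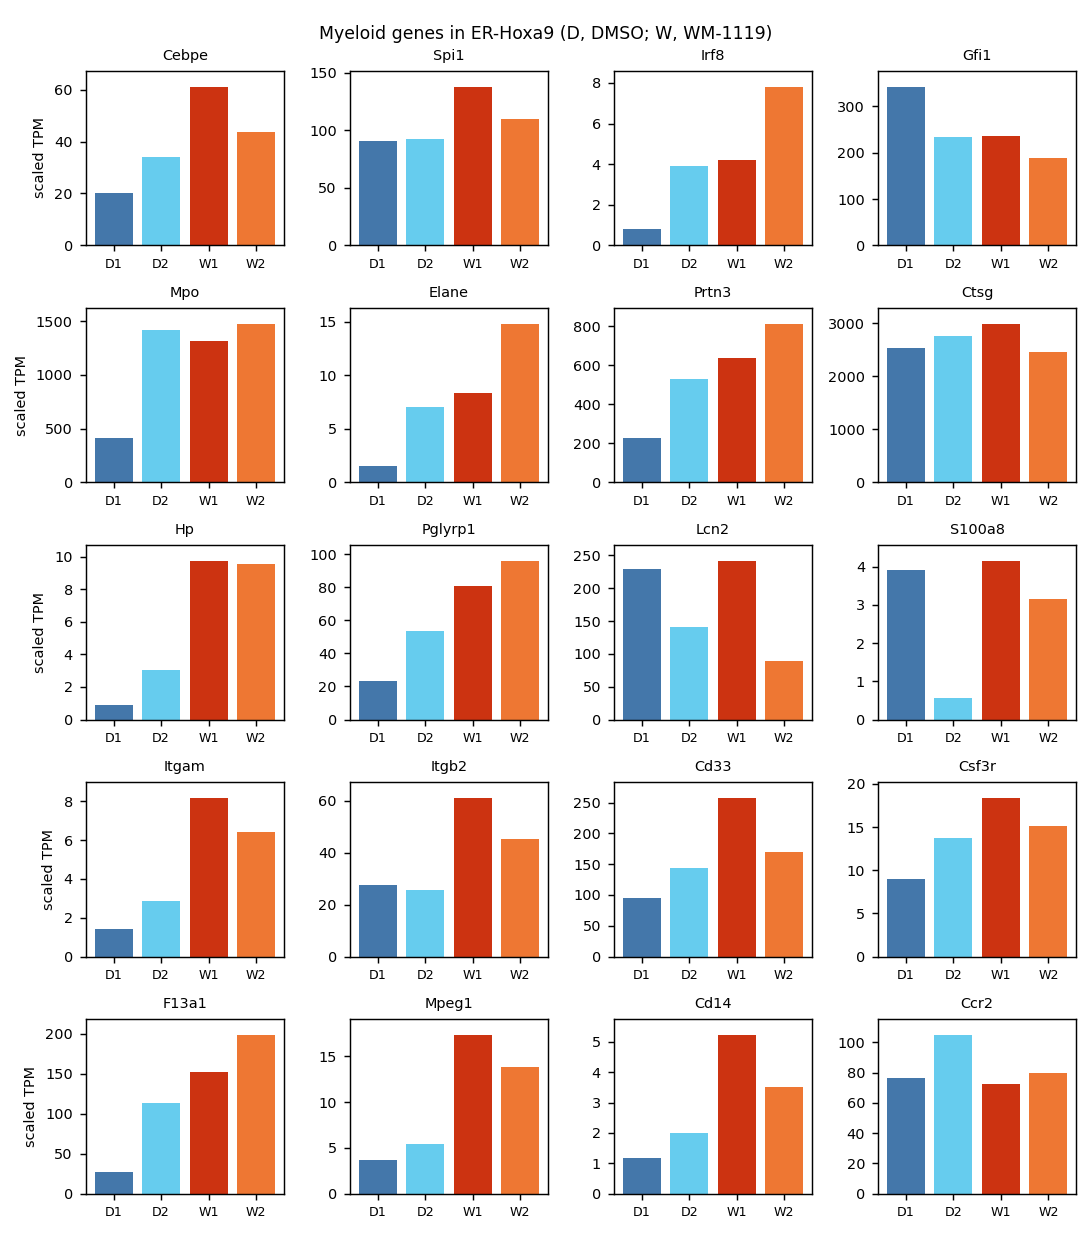
Scaled TPM of 20 myeloid genes in each ER-Hoxa9 library (D1 and D2, DMSO 1 and 2; W1 and W2, WM-1119 1 and 2); bars start at 0 and each panel has its own axis. Itgam and Itgb2 have both treated libraries above both controls, Mpo has DMSO 1 alone low at 409.7 TPM, and Lcn2 and Ctsg show overlapping groups.

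Genes of phagocyte defence were higher in a larger share than the background. The phagocyte oxidase makes superoxide, and its cytosolic subunit gene Ncf1 was at 86.5 and 110.1 TPM in the DMSO pair and 122 and 134 TPM in the treated pair. The membrane subunit Cyba was at 482 and 415 TPM in the DMSO pair and 692 and 490.5 TPM in the treated pair. Both had groups apart, with log2 changes of 0.39 and 0.38. In the sensor list, Tlr4, the lipopolysaccharide receptor, was at 2.38 and 4.98 TPM in the DMSO pair and 8.07 and 6.02 TPM in the treated pair. Pycard, the adaptor that joins sensors to caspase-1, was at 14 and 21.6 TPM in the DMSO pair and 22.9 and 26.3 TPM in the treated pair, and Gsdmd, the pore protein that caspase-1 cuts, at 35.8 and 36.6 TPM in the DMSO pair and 48.2 and 43.3 TPM in the treated pair. With Casp1, these are successive parts of the inflammasome route, and each was higher in both treated libraries. Counts of members apart on the higher and lower side were 11 and 1 of 14 for innate sensing (median log2 change 0.36) and 6 and 1 of 9 for the oxidase (median 0.32, 0.13 without WM-1119 1). With a pseudocount of 5 the innate sensing median was 0.20.

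Lipid mediator, lysosome and motility genes followed. Alox5ap, the 5-lipoxygenase activating protein needed for leukotrienes, was at 86.6 TPM in DMSO 1, 169 in DMSO 2, 277 in WM-1119 1 and 233 in WM-1119 2. The groups were apart, and the log2 change of Alox5ap was 1.06, or 0.58 without DMSO 1. In the lysosome list, Lipa, which splits cholesteryl esters, was at 6.20 and 11.5 TPM in the DMSO pair and 19.3 and 20.6 TPM in the treated pair. Psap, the saposin precursor, was at 209 and 227 TPM in the DMSO pair and 286 and 273 TPM in the treated pair, and Ctsz (cathepsin Z) at 134 and 143 TPM in the DMSO pair and 170.4 and 169.9 TPM in the treated pair. The most abundant lysosomal gene, Ctsd (cathepsin D), overlapped at 401 and 368 TPM in the DMSO pair and 456 and 375 TPM in the treated pair. For actin, Capg, an actin-capping protein, was at 42.6 and 46.8 TPM in the DMSO pair and 76.2 and 65.9 TPM in the treated pair, while the abundant cofilin gene Cfl1 was at 1578 and 1550.3 TPM in the DMSO pair and 1707 and 1825 TPM in the treated pair. Counts apart on the higher and lower side were 9 and 1 of 15 for lipid mediators (1 of the 9 tested only through treatment), 14 and 0 of 28 for lysosome and 19 and 0 of 27 for actin, with medians of 0.30, 0.22 and 0.21 on the log2 scale. Without DMSO 1 these medians were 0.17, 0.16 and 0.16.

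Antigen presentation genes are given by class, and no test compared the classes. H2-DMb1 and H2-DMa form the exchange factor that loads peptides on MHC class II, and were at 26.6 and 26.2 TPM in the DMSO pair and 45 and 36.4 TPM in the treated pair and at 22 and 23.6 TPM in the DMSO pair and 27.3 and 29.7 TPM in the treated pair. H2-Oa, a chain of their inhibitor, was at 1.24 and 3.23 TPM in the DMSO pair and 6.64 and 7.62 TPM in the treated pair. These 3 had groups apart, among 5 of 9 tested class II genes that were apart on the higher side, and 7 were under the filter (median log2 change 0.13). In class I presentation the proteasome activator gene Psme1 was at 142 and 143 TPM in the DMSO pair and 203 and 196 TPM in the treated pair, but B2m, the light chain of class I molecules, overlapped at 2054 and 1659 TPM in the DMSO pair and 2047 and 1877 TPM in the treated pair. There 5 of 19 were apart on the higher side, a share of 26.3% that is near the background (median 0.09, -0.04 without DMSO 2).

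Interferon-stimulated genes were mostly higher in both treated libraries. Ifitm3, which blocks virus entry at endosomes, was at 151 and 181 TPM in the DMSO pair and 200.0 and 239 TPM in the treated pair. Ifit2, an RNA-binding antiviral protein, was at 1.81 and 3.17 TPM in the DMSO pair and 5.53 and 6.09 TPM in the treated pair. Both genes, like Oas1a, had both treated libraries on top. Of 21 tested members 14 were apart on the higher side, 3 of them tested only through treatment, and 0 on the lower, with a median log2 change of 0.32, 0.25 without DMSO 1 and 0.32 without DMSO 2. It was 0.18 with quantile normalization and 0.17 with a pseudocount of 5. In the NF-kB list the chemokine genes Ccl3 and Ccl9 were also higher. Ccl3 was at 3.97 and 10.7 TPM in the DMSO pair and 19.2 and 18.8 TPM in the treated pair. For Ccl9 the values were 139.5 and 198 TPM in the DMSO pair and 276 and 261 TPM in the treated pair. Nfkbiz, of the same list, was lower, at 21.2 and 15 TPM in the DMSO pair and 12.6 and 11.5 TPM in the treated pair. That list had 10 of 19 apart on the higher side (1 tested only through treatment) and 3 on the lower.

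Receptors for growth factors and chemokines leaned higher. Csf2rb, the shared β chain of the GM-CSF, IL-3 and IL-5 receptors, was at 17.6 and 26.7 TPM in the DMSO pair and 39.1 and 31.8 TPM in the treated pair and Csf2ra, the GM-CSF α chain, at 68.7 and 67.4 TPM in the DMSO pair and 132 and 75.4 TPM in the treated pair. Il6ra, the IL-6 receptor, was at 2.26 and 4.15 TPM in the DMSO pair and 6.01 and 6.76 TPM in the treated pair. Cxcr4, the marrow-homing chemokine receptor, was at 22.5 and 31.5 TPM in the DMSO pair and 39.1 and 50.6 TPM in the treated pair. These 4 had groups apart, whereas Il10rb, the most abundant receptor of its list, overlapped at 108 and 101 TPM in the DMSO pair and 104 and 98.7 TPM in the treated pair. Counts on the higher and lower side were 12 and 1 of 22 for growth factor receptors and STAT5 outputs (2 of the higher tested only through treatment) and 12 and 1 of 22 for chemokine and interleukin receptors. Cfp, the properdin that stabilises the complement convertase, was at 9.15 and 18.7 TPM in the DMSO pair and 26.1 and 35.3 TPM in the treated pair, and Thbs1 (thrombospondin 1) at 274 and 219.7 TPM in the DMSO pair and 520.1 and 319 TPM in the treated pair, both higher in the treated libraries. The complement and coagulation list had 7 of 10 tested members apart on the higher side and 2 on the lower, among them its most abundant gene C1qbp at 398 and 335 TPM in the DMSO pair and 318 and 311 TPM in the treated pair. In the list of annexins, galectins and S100 proteins (9 and 1 of 20), Anxa1, an inhibitor of inflammation, was at 29.6 and 45.4 TPM in the DMSO pair and 55.4 and 63.6 TPM in the treated pair, S100a1 at 55.8 and 70.4 TPM in the DMSO pair and 99.5 and 131 TPM in the treated pair and the abundant Lgals1 (galectin-1) at 835 and 931 TPM in the DMSO pair and 961 and 1169.5 TPM in the treated pair.

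The progenitor program did not move as a block. Hoxa9 itself was at 269.7 TPM in DMSO 1, 277 in DMSO 2, 242 in WM-1119 1 and 277 in WM-1119 2. The groups overlapped, and the log2 change of -0.08 ± 0.11 (SE) was 0.06 without scaling. Whether these reads came from the construct or from the cells' own gene was not tested. Meis1, the cofactor of HOXA9, was at 60.9 and 40.9 TPM in the DMSO pair and 51.1 and 44 TPM in the treated pair, and Pknox1, a related homeodomain partner, at 15.6 and 15.1 TPM in the DMSO pair and 12.2 and 11.6 TPM in the treated pair. Of 20 HOX and cofactor genes only 6 were tested, and 1 (Pknox1) was apart on the lower side. Myb, a factor that keeps progenitors dividing, was at 454 and 454 TPM in the DMSO pair and 382 and 392 TPM in the treated pair (log2 change -0.23 ± 0.10 (SE), adjusted p = 0.48), lower in both treated libraries. Flt3, a receptor of early progenitors, was higher in both, at 155 and 165 TPM in the DMSO pair and 203 and 238 TPM in the treated pair. Sox4 overlapped at 107 and 84.7 TPM in the DMSO pair and 81.4 and 95 TPM in the treated pair, Runx2 was at 56.4 and 49.8 TPM in the DMSO pair and 40.9 and 41.9 TPM in the treated pair and Cdk6, a kinase that drives progenitors into the cell cycle, at 169.6 and 151 TPM in the DMSO pair and 113 and 144 TPM in the treated pair. Across known HOXA9, MEIS1 and MLL-fusion targets 7 of 25 were apart on the higher side (2 tested only through treatment) and 6 on the lower, shares of 28% and 24%, both near the background, and the median log2 change was 0.00. Among stem cell genes Hlf, a stem cell transcription factor, was at 119.6 and 114 TPM in the DMSO pair and 97 and 92.1 TPM in the treated pair, while Procr, the stem cell surface receptor EPCR, was at 1.05 and 1.38 TPM in the DMSO pair and 3.98 and 3.48 TPM in the treated pair. That list had 4 and 4 of 20 apart on the 2 sides.

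Transcripts of the complexes that MYST enzymes work in showed no common direction. Kat6a was at 15.2 TPM in DMSO 1, 17.1 in DMSO 2, 15.4 in WM-1119 1 and 17.1 in WM-1119 2. Libraries with the same number were alike, and the log2 change was 0.01 ± 0.13 (SE). Its relative Kat6b was at 4.95 and 5.29 TPM in the DMSO pair and 4.03 and 4.43 TPM in the treated pair. The scaffold gene Brpf1 was at 20.4 and 19.1 TPM in the DMSO pair and 18.6 and 18.6 TPM in the treated pair, the subunit genes Ing5 and Meaf6 at 12.9 and 11 TPM in the DMSO pair and 12.2 and 11.4 TPM in the treated pair and at 6.70 and 5.57 TPM in the DMSO pair and 8.38 and 7.25 TPM in the treated pair. Of these, Kat6b was lower and Meaf6 higher in both treated libraries by a small margin. Ing4 was the most abundant member, at 58.7 and 53.6 TPM in the DMSO pair and 60.4 and 59.9 TPM in the treated pair, and Jade3, a scaffold of the sister KAT7 complex, was at 10.6 and 7.60 TPM in the DMSO pair and 6.66 and 5.69 TPM in the treated pair (log2 change -0.48). Over the 14 genes of MYST complexes 3 were apart on the higher side and 4 on the lower, with a median of -0.00. Among 31 genes of MLL, menin and elongation complexes the counts were 3 and 11, with a median of -0.09 that was 0.04 without scaling. Mllt1, the ENL reader of acetylated histones, overlapped at 30.6 and 23.9 TPM in the DMSO pair and 27.8 and 25.3 TPM in the treated pair, and Brd2, a bromodomain reader, was lower in both treated libraries at 149 and 123 TPM in the DMSO pair and 111 and 106 TPM in the treated pair. Histone deacetylases, demethylases and methyltransferases had 5 and 12 of 38 apart, and the most abundant, Hdac1, was at 86.5 and 97.6 TPM in the DMSO pair and 114 and 113 TPM in the treated pair.

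Myc and most ribosome genes were lower in both treated libraries. MYC is among the factors that promote ribosome production. Whether the lower Myc and ribosome gene values are linked was not tested. Myc was at 337 and 310.4 TPM in the DMSO pair and 208 and 242 TPM in the treated pair. Both treated libraries were below both controls, and the log2 change of -0.53 ± 0.12 (SE) (limma adjusted p = 0.339) was -0.47 without DMSO 1 and -0.39 without scaling. Its partner Max was at 78.1 and 76.7 TPM in the DMSO pair and 69.1 and 66.2 TPM in the treated pair. The list of the MYC network did not fall together. Of 12 tested members 3 were apart on the lower side, a share of 25% that is near the background, and 1 on the higher. The median log2 change of that list was -0.09, and 0.04 without scaling. Npm1 (nucleophosmin), the most abundant of the MYC targets, was at 2352 and 2249 TPM in the DMSO pair and 1583 and 1886 TPM in the treated pair, and Ncl (nucleolin) at 244 and 226 TPM in the DMSO pair and 197 and 189 TPM in the treated pair. In the MYC target list 14 of 27 were apart on the lower side and 1 on the higher, with a median log2 change of -0.17, -0.03 without scaling.

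Genes of ribosome biogenesis and the ribosomal proteins were on the lower side too after median-of-ratios scaling. Dkc1, the pseudouridine synthase of snoRNA particles, was at 107 and 104 TPM in the DMSO pair and 81.6 and 85.5 TPM in the treated pair, and Rrp9, a protein of the U3 particle, at 80.1 and 56.8 TPM in the DMSO pair and 45.8 and 48.5 TPM in the treated pair. Mybbp1a, the most abundant member, overlapped at 175 and 152 TPM in the DMSO pair and 157 and 141 TPM in the treated pair. All 28 tested biogenesis genes had negative log2 changes, -0.51 to -0.06, and 15 were apart on the lower side; without scaling 6 of them were positive, and without DMSO 1 the median moved from -0.18 to -0.08, and without DMSO 2 to -0.33. Among ribosomal proteins, Rplp1, of the acidic stalk, was at 15506 and 13651 TPM in the DMSO pair and 10144 and 11675 TPM in the treated pair. Rpl12 was at 6540.5 and 5226 TPM in the DMSO pair and 4072 and 4158 TPM in the treated pair and Rps18 at 8617 and 7425 TPM in the DMSO pair and 5943 and 5898 TPM in the treated pair. DMSO 1 was the highest library for each of these. Of 31 cytosolic ribosomal protein genes 30 were apart on the lower side and 0 on the higher, with log2 changes from -0.51 to -0.19 and a median of -0.29, -0.15 without scaling, -0.16 without DMSO 1 and -0.44 without DMSO 2. With quantile normalization the median was -0.05 and 6 of the 31 had positive log2 changes. All symbols of the Rpl and Rps families, a set made after the values were seen, gave 72 of 82 apart on the lower side, with a median of -0.30 that was -0.07 with quantile normalization, where 20 were positive. They took 34.1% and 30.0% of all TPM in DMSO 1 and 2 and 29.0% and 27.9% in WM-1119 1 and 2. Ribosomal protein genes have many near-identical pseudogenes, so reads may be split among copies.

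**Figure D3:**
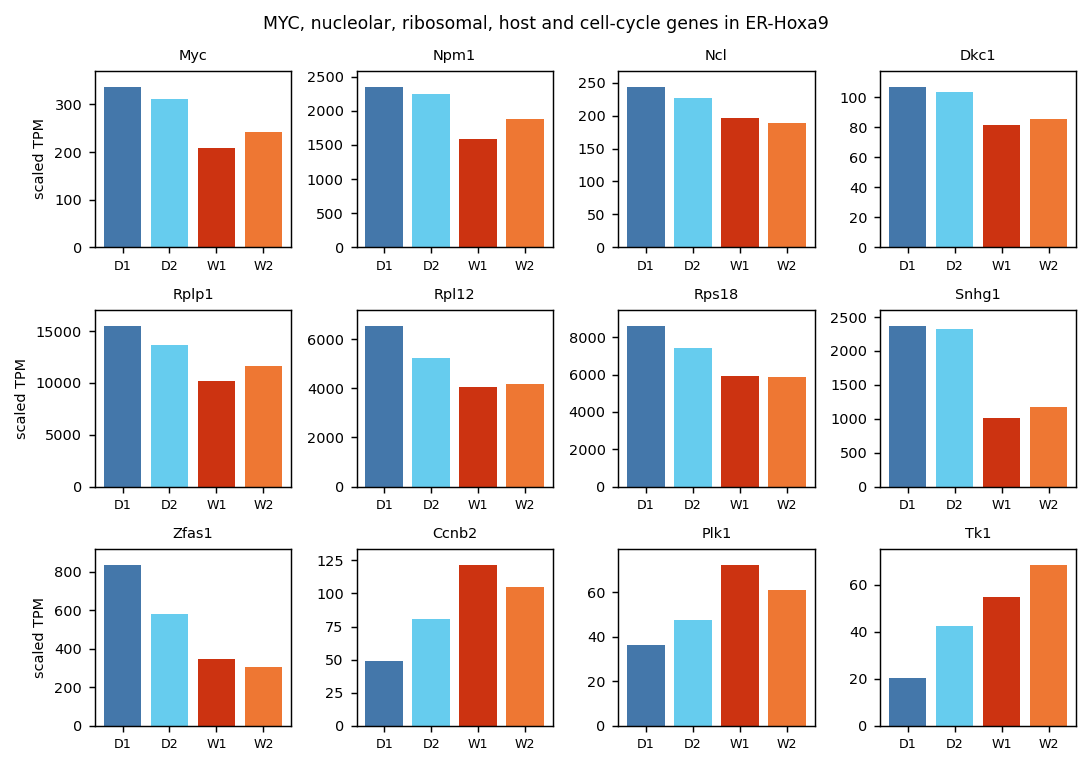
Scaled TPM of Myc, nucleolar and ribosomal genes, snoRNA hosts and cell-cycle genes in each ER-Hoxa9 library (D, DMSO; W, WM-1119); bars start at 0. Myc, Npm1 and Snhg1 are lower in both treated libraries with controls close together, while Ccnb2, Plk1 and Tk1 are higher with DMSO 1 the lowest.

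Mitosis genes were higher in nearly every case, alongside the lower ribosome genes. Ccnb2 (cyclin B2) was at 48.8 TPM in DMSO 1, 80.7 in DMSO 2, 121 in WM-1119 1 and 105 in WM-1119 2. Plk1, the polo-like kinase of mitotic entry, was at 36.3 and 47.6 TPM in the DMSO pair and 72.1 and 61.1 TPM in the treated pair, and Pttg1 (securin) at 12.8 and 15 TPM in the DMSO pair and 21.3 and 21.4 TPM in the treated pair. Ube2c, which hands ubiquitin to the anaphase-promoting complex, was at 162 and 215 TPM in the DMSO pair and 346 and 223 TPM in the treated pair. In each of these DMSO 1 was the lowest library and DMSO 2 the next. Of 26 tested members 25 were apart on the higher side and 0 on the lower, and the log2 changes ran from 0.40 to 0.84 with a median of 0.59. The median was 0.25 without DMSO 1 and 0.89 without DMSO 2.

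Genes of DNA synthesis were not all apart. Tk1 (thymidine kinase) was at 20.2 and 42.3 TPM in the DMSO pair and 54.5 and 68.3 TPM in the treated pair and Fen1, the flap nuclease of lagging strands, at 61.2 and 69.5 TPM in the DMSO pair and 99.4 and 92.6 TPM in the treated pair. Mcm2, a subunit of the replicative helicase, overlapped at 114 and 128 TPM in the DMSO pair and 112 and 125 TPM in the treated pair, and Pcna, the sliding clamp, was at 346 and 401 TPM in the DMSO pair and 403 and 458 TPM in the treated pair. The replication list had 10 of 30 apart on the higher side and 0 on the lower, with a median log2 change of 0.20 that was -0.00 without DMSO 1 and 0.42 without DMSO 2. Among cyclins, kinases and inhibitors (5 and 4 of 20 apart), Cdkn2a, the locus of the p16 and ARF tumour suppressors, was at 468 and 454 TPM in the DMSO pair and 349 and 378 TPM in the treated pair, lower in both treated libraries, and Cdkn1a (p21) overlapped at 38.1 and 35.6 TPM in the DMSO pair and 29.3 and 41.8 TPM in the treated pair. Clustered histone genes, which are near-identical copies and mostly lack poly(A) tails, had a median of -0.36 that turned to 0.17 without DMSO 2 and 0.06 without WM-1119 1. The largest gap there was at Hist2h2aa1, at 58.5 and 55.4 TPM in the DMSO pair and 10.5 and 36.7 TPM in the treated pair, and Hist3h2a was at 78.3 and 124 TPM in the DMSO pair and 64.1 and 85 TPM in the treated pair.

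The integrated stress response raises amino acid transport and synthesis through ATF4, and its genes were more often lower. Ddit3 (CHOP) was at 733 and 607 TPM in the DMSO pair and 518 and 429.6 TPM in the treated pair. Slc7a5 and Slc3a2, the 2 chains of the large neutral amino acid transporter, were at 210.1 and 184 TPM in the DMSO pair and 147 and 145 TPM in the treated pair and at 271 and 239 TPM in the DMSO pair and 188 and 188 TPM in the treated pair. Wars, the tryptophanyl-tRNA synthetase, was at 199.6 and 161 TPM in the DMSO pair and 139 and 99.2 TPM in the treated pair. These 4 had both treated libraries below both controls, while Atf4 itself overlapped at 407 and 375 TPM in the DMSO pair and 406 and 332 TPM in the treated pair and the most abundant member, Psat1 of serine synthesis, was at 643 and 765 TPM in the DMSO pair and 629 and 624 TPM in the treated pair. The list had 15 of 29 apart on the lower side and 1 on the higher, with a median of -0.25, -0.11 without scaling, -0.24 without DMSO 1 and -0.16 without WM-1119 2.

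The glycolysis genes named here sorted by library number and not by treatment. Ldha (lactate dehydrogenase A) was at 356 and 422 TPM in the libraries numbered 1 (DMSO first, then treated) and at 852 and 1032 TPM in those numbered 2. Pkm (pyruvate kinase) was at 304 and 506 TPM in the libraries numbered 1 and 869 and 1174 TPM in those numbered 2. Eno1 (enolase), which has close copies in the genome, was at 746 and 816 TPM against 2057 and 2478 TPM. In all 3 genes both libraries numbered 2 exceeded both numbered 1 whatever the treatment. Gapdh was at 2054 and 3093 TPM in the DMSO pair and 2428 and 3566 TPM in the treated pair, with the same order. The median log2 change of the list was 0.20, -0.17 without DMSO 1 and 0.56 without DMSO 2, 0.52 without WM-1119 1 and -0.15 without WM-1119 2, with 5 and 2 of 27 members apart. Respiratory chain genes had a median of 0.04 (10 and 4 of 30 apart), and their most abundant member Cox6a1 was at 1944 and 2280.2 TPM in the DMSO pair and 1964 and 2339.6 TPM in the treated pair. In the cholesterol list 6 of 27 were apart on the higher side and 2 on the lower, and 19 had positive log2 changes. The median of 0.23 was 0.13 without DMSO 1, 0.04 without WM-1119 2 and 0.15 with a pseudocount of 5. Hmgcs1, an early enzyme of synthesis, was at 111 and 110.3 TPM in the DMSO pair and 73.2 and 88.3 TPM in the treated pair, Fdps, a later one, at 55.6 and 90.6 TPM in the DMSO pair and 99.7 and 133 TPM in the treated pair, and Scd2, a fatty acid desaturase, at 154 and 266 TPM in the DMSO pair and 208 and 339.6 TPM in the treated pair. Iron genes had 6 and 3 of 21 apart, and Ftl1, the ferritin light chain, overlapped at 2603 and 1968 TPM in the DMSO pair and 2629.9 and 2402 TPM in the treated pair.

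The 4 lists of signalling and death genes were below the background on the higher side. Their shares apart ran from 5.26% to 16.7% on the higher side and from 16.7% to 31.2% on the lower, against 22.7% of all tested genes on each. For MAPK feedback 3 of 19 were apart on the higher side and 4 on the lower. Dusp6, the ERK phosphatase, was at 110.2 and 122 TPM in the DMSO pair and 83.1 and 109 TPM in the treated pair, and Rasgrp2, a Rap activator, at 84.3 and 97.9 TPM in the DMSO pair and 129.9 and 130.0 TPM in the treated pair. Immediate early genes had 1 and 5 of 16 apart. Egr1 was at 10.5 and 13.5 TPM in the DMSO pair and 2.38 and 10.5 TPM in the treated pair, with WM-1119 1 alone far down, Fosl1 at 7.09 and 2.17 TPM in the DMSO pair and 1.18 and 1.75 TPM in the treated pair and Ier2 at 90 and 73.5 TPM in the DMSO pair and 61.2 and 65.8 TPM in the treated pair. In the BCL2 family (2 and 2 of 12), the p53 target Bbc3 (PUMA), a killer protein, was lower in both treated libraries at 44.6 and 29.6 TPM in the DMSO pair and 21.2 and 23.5 TPM in the treated pair, Bad was higher at 60.4 and 54.9 TPM in the DMSO pair and 76 and 72.6 TPM in the treated pair, and Bax and Bid overlapped at 132 and 108 TPM in the DMSO pair and 115 and 117 TPM in the treated pair and at 146 and 118 TPM in the DMSO pair and 124 and 102 TPM in the treated pair. For p53 targets the counts were 1 and 5 of 19.

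**Figure D4:**
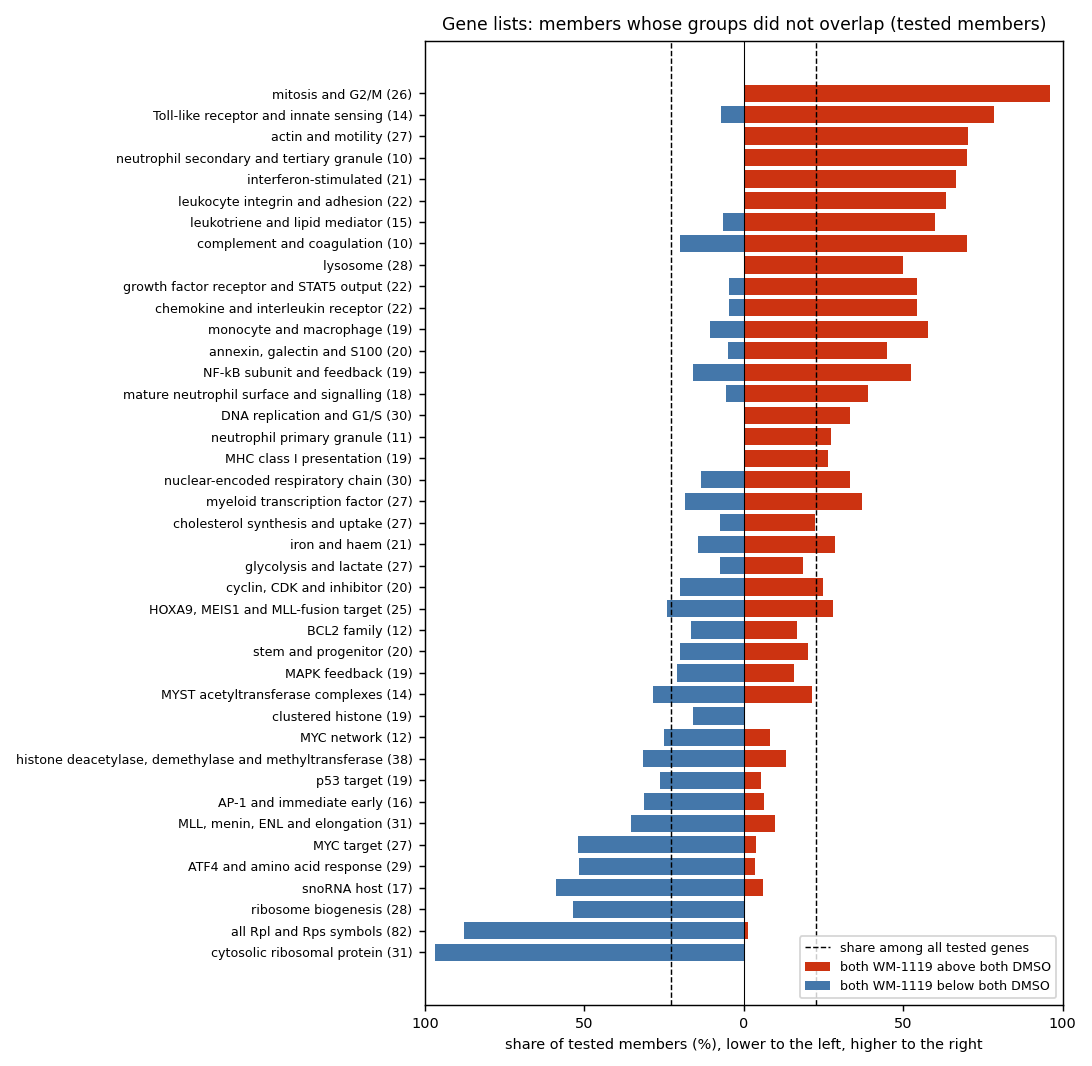
Share of a list's tested members (number in brackets) with both WM-1119 libraries above both DMSO libraries (right) or below both (left), in percent. Only lists with at least 10 tested members are drawn. The snoRNA host list and the list of all Rpl and Rps symbols were put together after the values were seen. Dashed lines mark the 22.7% of all tested genes. Mitosis genes reach 96.2% on the right and cytosolic ribosomal protein genes 96.8% on the left, and none of these members passed the adjusted threshold singly. With quantile normalization 6 of the 31 ribosomal protein genes had positive log2 changes.

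Markers of other blood lineages were present, some at high levels. Cpa3, the mast cell carboxypeptidase, was at 669.6 and 373 TPM in the DMSO pair and 541 and 154 TPM in the treated pair, and Prg2, the eosinophil major basic protein, at 131 and 74.3 TPM in the DMSO pair and 171 and 45.2 TPM in the treated pair. Prg3, its relative, was at 91.3 and 106 TPM in the DMSO pair and 252 and 65.5 TPM in the treated pair. WM-1119 2 was the lowest library for these 3 and the groups overlapped. Summed over the lists, eosinophil genes were at 246 and 216 TPM in DMSO and 467 and 146 TPM with WM-1119 (2 of 5 tested of 12 apart on the higher side, 4 listed at 0 in all), and basophil and mast cell genes at 773 and 472 TPM and 638 and 239.9 TPM (1 higher and 1 lower of 4 tested of 14). Hdc, the histidine decarboxylase of basophils, was apart on the higher side, at 1.57 and 2.85 TPM in the DMSO pair and 11.4 and 5.77 TPM in the treated pair. The part of such cells in the values above was not tested.

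Early B-lineage and platelet genes included members on the higher side. Beside Vpreb3, Cd79a and Cd79b, the signalling chains of the B cell receptor, were at 1.44 and 3.68 TPM in the DMSO pair and 11.2 and 7.58 TPM in the treated pair and at 20.1 and 28.9 TPM in the DMSO pair and 40.8 and 39.9 TPM in the treated pair. Igll1, the surrogate light chain, overlapped at 25 and 71.2 TPM in the DMSO pair and 56 and 136 TPM in the treated pair. Of 19 early B-lineage genes 9 were tested and 4 were apart on the higher side, while 3 were listed at 0 in every library. Gp9, a platelet glycoprotein, was at 6.03 and 11.9 TPM in the DMSO pair and 26.5 and 25.4 TPM in the treated pair and Itgb3, the platelet integrin chain, at 5.77 and 10.2 TPM in the DMSO pair and 20.2 and 19.1 TPM in the treated pair, in a list with 3 and 1 of 8 tested members apart. The erythroid list summed to 242 to 251 TPM (2 of 7 tested members apart on the higher side, 1 of them tested only through treatment, and 1 on the lower), mostly through Nfe2 (163 and 166 TPM in the DMSO pair and 156 and 146 TPM in the treated pair), which myeloid cells also express. T and NK cell genes summed to 18.4 to 27.2 TPM, with 3 of 6 tested members apart on the lower side and 1 on the higher, the latter tested only through treatment. Nkg7, their most abundant, was at 1.69 and 9.63 TPM in the DMSO pair and 6.60 and 9.67 TPM in the treated pair. Fibroblast and endothelial genes had 3 of 17 tested, none apart, and Pecam1 was at 60 and 81.5 TPM in the DMSO pair and 66.9 and 86.4 TPM in the treated pair. In the dendritic cell list 6 of 16 were tested, 3 apart on the higher side and 1 on the lower.

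Leaving out single libraries moved the list medians by different amounts. The median for integrins and adhesion was 0.22 without DMSO 1 and 0.32 without DMSO 2. For interferon-stimulated genes it was 0.25 and 0.32, and for ATF4 genes -0.24 and -0.29, though the ATF4 median was -0.16 without WM-1119 2. The medians for primary granules, replication, glycolysis, class I presentation and clustered histones, among others, reached or crossed 0 when a library was left out.

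**Figure D5:**
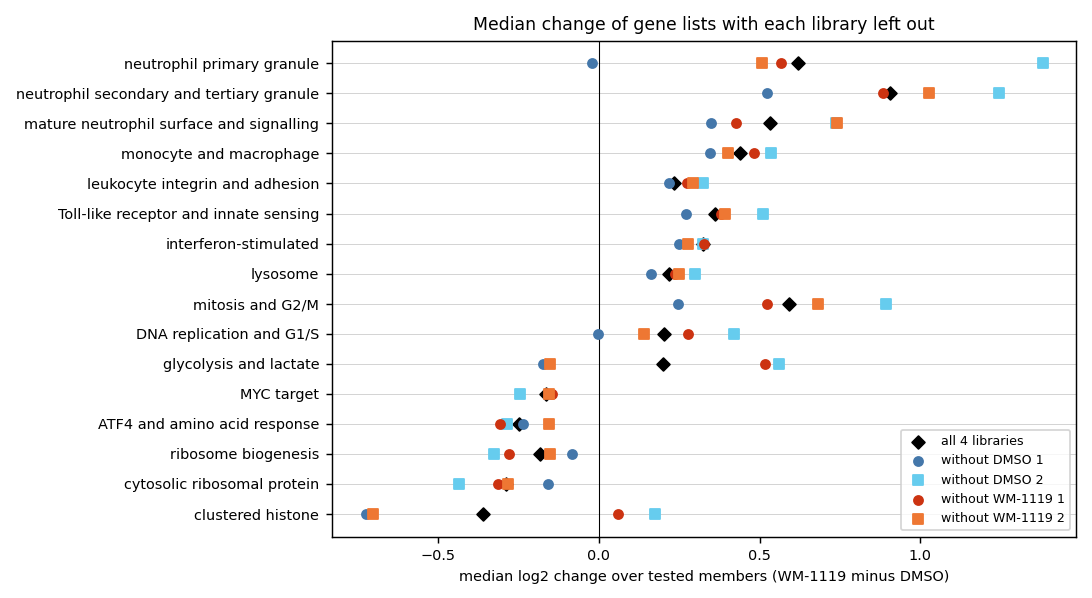
Median log2 change (WM-1119 minus DMSO) over the tested members of 16 gene lists in ER-Hoxa9, with all 4 libraries (black) and with each library left out (colours). The primary granule median runs from -0.02 to 1.38, while the cytosolic ribosomal protein median runs from -0.44 to -0.16; the value of -0.05 with quantile normalization is not drawn.

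The response of ER-Hoxa9 was set against that of MOLM-13 to ask which changes differed between the lines. Genes were matched by symbol, 8639 in all, and the test was on the difference of the 2 log2 changes. The fit gave each gene a spread shared by both lines, so the SE of a difference may understate the spread within ER-Hoxa9. Species, dose (2 µM and 4 µM) and β-estradiol, recorded only for ER-Hoxa9, differ along with the line and cannot be told apart from it. The difference passed for 3 genes (0.0347%), all with the larger change in ER-Hoxa9. For Rgs10, the MOLM-13 libraries were at 44.2, 47.3 and 59.1 TPM in DMSO and 48.5, 55 and 62.5 TPM with WM-1119. MOLM-13 expressed the gene at a high level in every library, with a log2 change of 0.14 against 2.50 in ER-Hoxa9, a difference of 2.36 ± 0.16 (SE) (limma adjusted p = 0.00161). The other two were named after their values were seen. Gcat, which makes the last step of threonine breakdown to glycine, was at 0.159 and 0.514 TPM in the DMSO pair and 3.82 and 4.08 TPM in the treated pair in ER-Hoxa9, and at 22.5, 20.2 and 19.5 TPM in DMSO and 22.3, 18.1 and 15.2 TPM with WM-1119 in MOLM-13 (difference 2.07 ± 0.19 (SE), adjusted p = 0.0125). Spon2, a secreted matrix protein of innate immunity, was at 0.0284 and 0.245 TPM in the DMSO pair and 2.67 and 2.21 TPM in the treated pair in ER-Hoxa9, and at 1.12, 3.58 and 4.21 TPM and 0.358, 2.71 and 3.08 TPM in MOLM-13 (difference 2.03 ± 0.23 (SE), adjusted p = 0.0352). In ER-Hoxa9 both Gcat and Spon2 averaged under 1 TPM in DMSO and were tested only through the treated libraries, so a higher value there was a condition of the test. In most alternatives 1 gene passed, as it did without any single MOLM-13 library and without either WM-1119 library of ER-Hoxa9, while 3 passed without DMSO 1 and 215 without DMSO 2.

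For other genes the lines are given side by side, and no difference passed. Myc had log2 changes of -0.53 in ER-Hoxa9 and -0.57 in MOLM-13 (difference 0.04 ± 0.17 (SE), adjusted p = 0.95). Snhg1 had -1.10 and -0.33 (difference -0.77 ± 0.23 (SE), adjusted p = 0.285). Itgam had 1.43 and 0.32, with a difference of 1.11 ± 0.30 (SE) and an adjusted p of 0.239. Slc7a5 and Slc3a2 had -0.43 and -0.44 in ER-Hoxa9 against -0.61 and -0.36 in MOLM-13. For Casp1 the values were 1.05 and 0.34 (limma adjusted p of the difference 0.184). These genes are examples that had the same sign in both lines. Others named above did not, such as Bid at -0.22 in ER-Hoxa9 and 0.12 in MOLM-13. The share of all matched genes with the same sign was not counted.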

How the data were processed

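RNA was sequenced from ER-Hoxa9 (2 DMSO and 2 WM-1119 libraries) and MOLM-13 (3 and 3). Each line has a table of TPM by gene symbol that the authors deposited; Salmon, mm10 and hg38 are named per the submitters' processing notes, and for the Salmon version and the annotation: not given in the sources used here. Each TPM column sums to 1000000 and keeps no depth. Columns were matched to samples by treatment and number, and 0 were unassigned; the prefix of the mouse columns is not used by the labels.

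Symbols starting Mir, Snor or Rnu (1274 symbols, 7.98% to 11.3% of a library's TPM) were left out, libraries were scaled by median of ratios, and symbols averaging 1 TPM or more were fitted as log2(TPM + 1) by limma 3.58.1 in R 4.3.3 (eBayes with trend, two-sided, Benjamini-Hochberg adjusted p under 0.05). The line comparison fitted symbols matched by spelling in all 10 libraries, with the replicate number as a factor in MOLM-13, where same-numbered libraries deviated together (correlations 0.751, 0.668 and 0.798). The fit was tested on simulated data.

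The members, gene lists and tests were chosen with earlier results of these data known. Named genes were the 15 per direction with groups apart, 5 TPM or more on average in the higher group no pseudogene or placeholder symbol and, since called genes were too few, the smallest unadjusted p, with 30 fixed genes and the most abundant member of each list; others are examples chosen after their values were seen. Alternatives were pseudocounts of 0.1 and 5, no filter or a filter at 5 TPM, no scaling, quantile normalization, keeping the small RNA symbols, eBayes without trend or robust, a replicate block and leaving out each library. Results for a few genes are not reported here. No mouse genome was used here, so no sequence or coordinate is printed. Figures were drawn with matplotlib 3.10.9.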

Additional observations from a re-analysis of the deposited data

Results flagged for a closer look

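The test of the difference between the lines passed for Rgs10, whose log2 change was larger in ER-Hoxa9 than in MOLM-13 by 2.36 ± 0.16 (SE, limma adjusted p = 0.0016). Both treated ER-Hoxa9 libraries were above both controls for Rgs10. The same test passed for Gcat, by 2.07 ± 0.19 (adjusted p = 0.0125), and for Spon2, by 2.03 ± 0.23 (adjusted p = 0.0352). Gcat and Spon2 were under 1 TPM in both DMSO libraries of ER-Hoxa9 and were tested only through the treated libraries, so a higher value there was a condition of the test. Groups of 2 and 3 libraries are too small for a check of single outlying libraries.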

How the results depend on the processing

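The 1 higher and 0 lower calls of ER-Hoxa9 became 0 and 0 at a pseudocount of 0.1, without a filter on low values, with a mean of at least 5 TPM, and without WM-1119 replicate 1 or 2. They became 2 and 0 without scaling and with robust variance, and 1 and 2 when Mir, Snor and Rnu symbols were kept, the 2 being Mir7050 and Mirlet7i. Leaving out each library in turn gave 0 to 158 higher and 0 to 17 lower calls, the highest counts without DMSO 2, where the lone control is assumed to vary like the treated pair. With the replicate number as a block there were 51 and 19 calls. Same-numbered ER-Hoxa9 libraries deviated together with a correlation of 0.373 across genes, but with only 2 pairs and no label on what a number shares, the numbers were not taken to pair the samples. The count of genes that differed between the lines, 3, was 1 at a pseudocount of 0.1 or 5, 1 with a mean of at least 5 TPM, 1 with no replicate block in either line, 12 with a replicate block in both lines, and 1 to 215 with a library left out.

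Of 190 genes followed, 155 kept their sign in every alternative run. Many were taken because their groups were apart or after their values were seen. A gene with groups apart cannot turn when a library is left out, so this count does not measure stability. Without scaling the log2 changes that turned were Atf4 0.046, Bax 0.10, Brpf1 0.047, Cd63 0.12, Cdkn1a 0.060, Hoxa9 0.056, Il10rb 0.092, Ing5 0.11, Mcm2 0.10, Meis1 0.060, Mllt1 0.10, Mybbp1a 0.0038, Nfe2 0.014, Sox4 0.021. With quantile normalization those were Cd63 0.043, Kat6a -0.011. With a library left out the turned genes ran over these ranges: Atf4 -0.23 to 0.057, B2m -0.068 to 0.24, Bax -0.18 to 0.11, Cd63 -0.23 to 0.20, Cdkn1a -0.32 to 0.18, Cox6a1 -0.10 to 0.15, Cpa3 -1.69 to 0.12, Ctsd -0.033 to 0.25, Ctsg -0.10 to 0.18, Eno1 -0.60 to 1.00, Ftl1 -0.051 to 0.35, Gapdh -0.072 to 0.52, Hoxa9 -0.17 to 0.017, Il10rb -0.087 to 0.0029, Ing5 -0.12 to 0.094, Kat6a -0.067 to 0.089, Lcn2 -1.01 to 0.42, Ldha -0.38 to 0.90, Mcm2 -0.11 to 0.048, Meis1 -0.35 to 0.21, Mllt1 -0.20 to 0.15, Mpo -0.025 to 1.77, Nkg7 -0.24 to 1.75, Pecam1 -0.10 to 0.34, Pkm -0.17 to 1.34, Prg2 -1.11 to 0.79, Prg3 -0.58 to 1.35, S100a8 -0.090 to 1.57, S100a9 -0.19 to 1.00, Scd2 -0.00024 to 0.78, Slpi -0.12 to 2.22, Sox4 -0.28 to 0.053. The cause of these shifts was not tested. Gene list medians moved by less than the spread between replicates in 628 of 742 recomputations. The fits without trend, with robust variance or with a replicate block leave every log2 change as it was, so their medians could not move. The spread was that of each list itself, so lists that varied most between libraries were least likely to count as moved. The count is therefore no measure of stability. The cytosolic ribosomal protein median of -0.29 was -0.05 with quantile normalization, with 6 of 31 members positive. TPM keep no depth, so precision at low values could not be judged.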
